A study of Homo sapiens with 6 samples.

Results

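The genes described here encode enzymes that build serine, asparagine and proline and that move 1-carbon units on folate. They were taken by symbol from a gene table of RNA sequencing and are 10 of the 58735 genes listed there: PHGDH, PSAT1, PSPH, SHMT1, SHMT2, MTHFD2, MTHFD1L, ASNS, ALDH18A1 and PYCR1. All 10 were found, and 9 lay above the filter on low values used for testing (a mean of at least 1 FPKM, the read number scaled to gene length and a factor for each library, over the 6 libraries). ASNS lay under it. The cells were HT1080, a human fibrosarcoma line grown in DMEM with fetal bovine serum. There were 3 libraries of GPR56 knockout (KO) cells, made with CRISPR-Cas9, and 3 of wild-type (WT) cells. GPR56, approved symbol ADGRG1, is an adhesion G protein-coupled receptor. The descriptions of both genotypes carry the solvent name DMSO, with no dose or time. The labels do not say how many KO clones were used or whether the 3 libraries of a genotype came from separate cultures, so the p-values rest on differences among these libraries that may be technical.

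Serine is made from the glycolytic intermediate 3-phosphoglycerate in consecutive steps catalysed by PHGDH, PSAT1 and PSPH. Serine hydroxymethyltransferases then convert it to glycine and load a carbon unit on folate, SHMT1 in the cytosol and SHMT2 in mitochondria. MTHFD2 and MTHFD1L carry that unit on to formate in mitochondria, and the formate feeds purine and thymidylate synthesis. ASNS makes asparagine from aspartate and glutamine. ALDH18A1 and PYCR1 catalyse the first and last steps of proline synthesis from glutamate. Many of these genes are known targets of ATF4, a transcription factor induced when amino acids run short, which binds the C/EBP-ATF response element together with C/EBP proteins.

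RefSeq promoter windows on GRCh38.p14, 250 bases before to 50 bases after a start site, were found for 7 of the 10 genes and not for PSPH, SHMT2 and PYCR1. The C/EBP-ATF response element was searched as TGATGNAA on both strands, and the E-box CACGTG (bound by MYC with MAX) and the core of the antioxidant response element TGACNNNGC (bound by NRF2) in the same way. The C/EBP-ATF response element was present in windows of ASNS and MTHFD1L, 2 of 7 genes, and in 4.46% of all 27305 genes with a window. By window the share was 3.62% of 35116. Of the 7 genes only ASNS and MTHFD1L have more than 1 window, so more sequence was searched for them. The E-box was present in windows of MTHFD1L and ALDH18A1, with 8.77% of all genes, and the antioxidant response element core in MTHFD2 alone, with 16.1% of all genes. The 250 bases before the start are shown for ASNS and MTHFD1L, which hold the response element. They are also shown for PSAT1 and PHGDH, the tested genes with the largest decreases, whose windows held none of the 3 motifs. Sequences run 5′ to 3′ on the gene's strand, and capitals mark matches. The windows are chr7:97872409-97872658 on the minus strand for ASNS and, on the plus strand, chr6:150866197-150866446 for MTHFD1L, chr9:78296875-78297124 for PSAT1 and chr1:119711684-119711933 for PHGDH.
ASNS: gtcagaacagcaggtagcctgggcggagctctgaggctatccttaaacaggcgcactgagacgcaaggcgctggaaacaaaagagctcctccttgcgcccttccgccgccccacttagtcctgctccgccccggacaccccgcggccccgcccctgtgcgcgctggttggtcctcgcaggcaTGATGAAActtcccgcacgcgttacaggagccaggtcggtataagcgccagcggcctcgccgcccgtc
MTHFD1L: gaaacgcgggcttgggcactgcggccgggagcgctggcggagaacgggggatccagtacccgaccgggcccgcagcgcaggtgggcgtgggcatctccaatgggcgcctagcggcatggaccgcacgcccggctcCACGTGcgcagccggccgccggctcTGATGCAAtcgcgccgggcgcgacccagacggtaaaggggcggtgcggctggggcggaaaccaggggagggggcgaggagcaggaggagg
PSAT1: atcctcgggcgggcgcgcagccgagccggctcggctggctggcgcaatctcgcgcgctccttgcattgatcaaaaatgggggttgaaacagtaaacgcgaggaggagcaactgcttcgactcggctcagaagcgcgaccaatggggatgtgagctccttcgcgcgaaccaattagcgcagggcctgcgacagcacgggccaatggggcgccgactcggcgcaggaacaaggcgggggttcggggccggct
PHGDH: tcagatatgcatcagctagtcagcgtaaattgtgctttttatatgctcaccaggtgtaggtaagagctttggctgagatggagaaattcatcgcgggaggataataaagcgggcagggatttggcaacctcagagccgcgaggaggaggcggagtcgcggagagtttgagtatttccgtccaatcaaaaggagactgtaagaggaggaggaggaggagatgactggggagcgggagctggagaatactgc
The ASNS match begins at position −68 relative to the start site. In MTHFD1L the E-box begins at position −115 and the response element at position −90. RefSeq gives 4 start sites for MTHFD1L and 2 for ASNS, and the windows shown were chosen because they hold the matches before the start. Counted from another MTHFD1L start site the same 2 matches lie at −154 and −129, and from the third at −1 and 25. The fourth MTHFD1L window and the second ASNS window hold neither motif. A match is a run of letters and not evidence of binding. Lack of a match to these strings in these short windows does not show that a factor is not bound.

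The libraries held 16955111 to 17276269 reads in KO and 16410352 to 16461752 reads in WT, as recovered from the FPKM values. ADGRG1 was at 2.68, 2.54 and 2.58 FPKM in KO and 6.61, 6.07 and 6.87 FPKM in WT (log2 fold change −1.06, limma adjusted p = 6.24e-05), so its mRNA was lower in each library labelled KO and still detected. All 6 mesenchymal marker genes examined were expressed, with a summed level of 1274 to 1283 FPKM across KO libraries and 996 to 1034 FPKM across WT libraries. PLAU rose to 402 FPKM in KO, against 207 FPKM in WT, S100A4 to 10.2 FPKM in KO, against 3.42 FPKM in WT, and FN1 to 80.8 FPKM in KO, against 54.8 FPKM in WT (limma adjusted p of 0.000122, 0.00189 and 0.000841). CD44, MMP14 and VIM were not called, VIM being at 287 FPKM in KO and 311 FPKM in WT. Of the 7 markers of other cells, CDH1, PTPRC and ALB had 0 reads, EPCAM had 1 read per genotype and CD3E had 4 in KO and 2 in WT. KRT8 was at 55.9 FPKM in KO and 35.4 FPKM in WT, and PECAM1 at 1.23 FPKM in KO and 0.326 FPKM in WT. Summed over these 7 markers the level was 56.7 to 57.7 FPKM across KO libraries and 33.9 to 38.1 FPKM across WT libraries, nearly all of it KRT8. The part of the markers of either kind in the results was not tested. Library deviations also followed GC content: across genes, the Spearman correlation was 0.46, 0.44 and 0.23 in the KO libraries and −0.40, −0.62 and −0.01 in the WT libraries. Values after removal of this trend are therefore given for some of the 10 genes and for the lists of related genes described below. Named genes outside the 10, and the genes near PSAT1, are given without this removal. In a bulk RNA sample, fewer cells expressing a gene and less of its mRNA per cell cannot be told apart.

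PHGDH and PSAT1, which open the serine pathway, were lower in KO cells (ratios of 0.460 and 0.467), as were the mitochondrial folate enzymes MTHFD2 (0.627) and SHMT2 (0.742). Of the 9 tested genes, PHGDH, PSAT1, SHMT2, MTHFD2 and PYCR1 were called lower and SHMT1 higher, while PSPH, MTHFD1L and ALDH18A1 did not pass (limma on log2(FPKM + 1), Benjamini-Hochberg adjusted over 12000 genes, threshold 0.05). Over all genes tested 43.4% were called, 22.4% lower and 21.0% higher. The median log2 fold change of the 9 genes was −0.41, against −0.0055 over all genes tested. KO and WT libraries did not overlap for 8 of the 9 tested genes, with 54.7% of all genes tested showing no overlap. Of these 8, 6 were lower in KO (28.3% of all genes tested) and 2 higher (26.4%). After the GC and length correction 6 of the 9 were called lower and 1 higher, with 43.8% of all genes tested called, 22.1% lower and 21.7% higher. The genes called were not all the same: of the 5207 called without the correction, 3810 were also called in the same direction after it. Log2 fold changes are differences of log2(FPKM + 1), KO minus WT, and so are too small for weakly expressed genes.

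**Figure D1:**
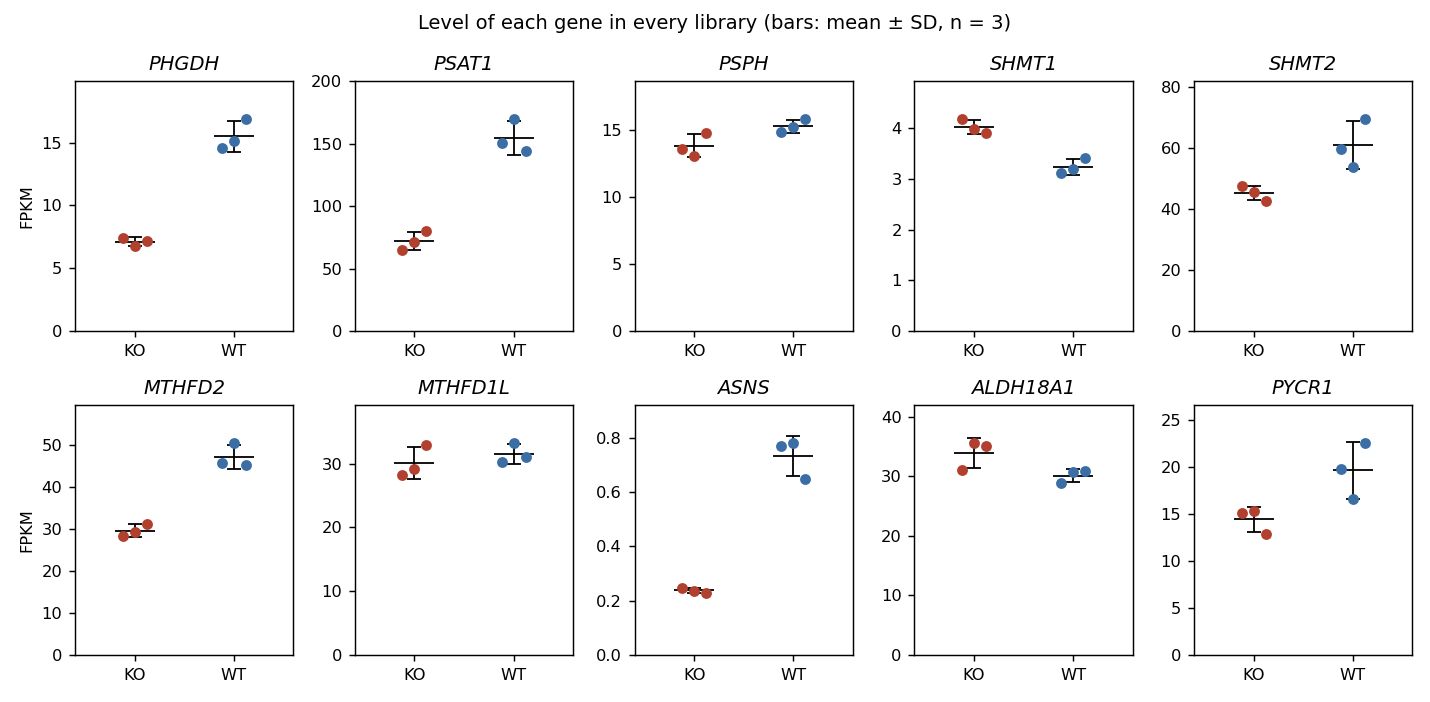
Level in FPKM (vertical axes, each from 0) of the 10 genes in the 3 KO and 3 WT libraries, with a panel per gene; points are libraries and bars the mean ± SD. PHGDH, PSAT1, MTHFD2 and ASNS stand lower in KO, SHMT1 is higher in KO, and the groups overlap for MTHFD1L alone.

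PHGDH, the phosphoglycerate dehydrogenase that commits carbon to serine (ENSG00000092621, chromosome 1, positions 119648411 to 119744226, plus strand), was at 7.44, 6.79 and 7.16 FPKM in KO and 14.5, 15.1 and 16.9 FPKM in WT. Each KO library lay under every WT library. The mean was 7.13 ± 0.32 FPKM in KO and 15.5 ± 1.2 FPKM in WT (SD, n = 3 each), a ratio of 0.460 (log2 fold change −1.02, SE 0.07, limma adjusted p = 0.000103). Only 1.43% of the tested genes had a log2 fold change as low or lower.

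PSAT1, the phosphoserine aminotransferase (ENSG00000135069, chromosome 9, positions 78297143 to 78330093, plus strand), was the most abundant of the 10 genes per length. Its level was 65.0, 71.6 and 79.99 FPKM in KO and 150.3, 169.5 and 143.7 FPKM in WT. The groups were far apart, with means of 72.2 ± 7.5 FPKM in KO and 154.5 ± 13.4 FPKM in WT, a ratio of 0.467 (log2 fold change −1.09, SE 0.10, limma adjusted p = 0.00025). None of its 4 annotated pseudogenes had a read in any library. Genes near it were lower too: of 7 other tested genes that start within 2 Mb, 5 were called lower and 1 higher, with a median of −0.56 (over all genes tested, 22.4% were lower and 21.0% higher). The nearest of them, CEP78, which encodes a centrosomal protein, had a log2 fold change of −0.56 (limma adjusted p = 0.00142), and GNAQ, a G protein alpha subunit, −0.64 (limma adjusted p = 0.000603). A wider span, 60 to 100 Mb of chromosome 9, was not in the plan and includes PSAT1 and these 7 neighbours. Of its 96 tested genes 37 were lower and 11 higher, with a median of −0.20, beside the same 22.4% and 21.0% over all genes tested. The part of this neighbourhood in the PSAT1 result was not tested.

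**Figure D2:**
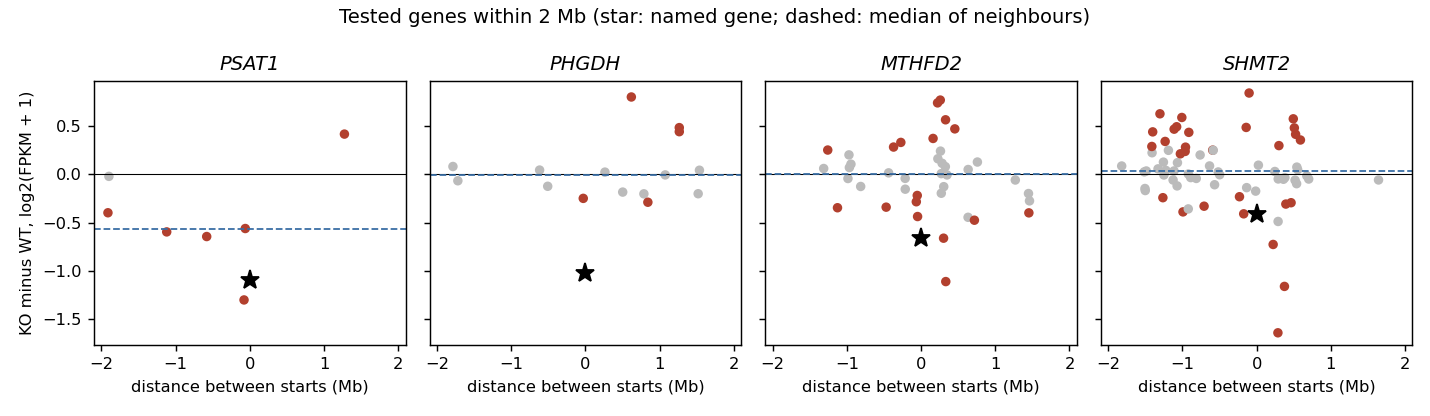
Log2 fold change (KO minus WT, vertical axis) of the tested genes within 2 Mb of PSAT1, PHGDH, MTHFD2 and SHMT2 against the distance between gene starts in Mb; red points have an adjusted p under 0.05, the star is the named gene and the dashed line the median of its neighbours. The neighbours of PSAT1 have a median of −0.56, while the medians around the other genes lie near 0.

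Around the other 9 genes the medians of tested neighbours within 2 Mb ran from −0.13 (MTHFD1L, 20 genes) to 0.13 (ASNS, 22 genes). PHGDH had 15 such neighbours, of which 2 were lower and 3 higher, with a median of −0.0063.

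PSPH, the phosphatase that releases free serine (ENSG00000146733, chromosome 7, positions 56011051 to 56051604, minus strand), was not called. Its level was 13.6, 13.1 and 14.8 FPKM in KO and 14.9, 15.2 and 15.8 FPKM in WT, close but without overlap. The log2 fold change was −0.14 (95% confidence interval −0.29 to 0.02, limma adjusted p = 0.13). It was −0.22 and called lower after the GC and length correction (limma adjusted p = 0.0136). Its pseudogene PSPHP1 had 3 reads over the KO libraries and 0 over the WT libraries.

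Within libraries the PHGDH to PSPH ratio was 0.546, 0.518 and 0.483 in KO and 0.979, 0.990 and 1.07 in WT. Every KO ratio lay under every WT ratio (exact permutation test, two-sided p = 0.1, which is the lowest possible with 3 libraries in each group; 0.125 adjusted over 5 ratios). Summed over PHGDH, PSAT1 and PSPH, the level was 93.2 ± 8.1 FPKM in KO and 185 ± 13 FPKM in WT (SD, n = 3 each). PSAT1 made up 77.4% of this sum in KO and 83.3% in WT.

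The hydroxymethyltransferases changed in opposite directions, SHMT2 lower and SHMT1 higher in KO. SHMT2, the mitochondrial enzyme (ENSG00000182199, chromosome 12, positions 57229327 to 57234935, plus strand), was at 47.4, 45.5 and 42.7 FPKM in KO and 59.6, 53.8 and 69.4 FPKM in WT. All KO libraries were lower, and the WT libraries spread widely. The mean was 45.2 ± 2.3 FPKM in KO and 60.9 ± 7.9 FPKM in WT, a ratio of 0.742 (log2 fold change −0.42, SE 0.10, limma adjusted p = 0.0128). SHMT2 is GC-rich (57.0%), and its log2 fold change was −0.56 after the GC and length correction.

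SHMT1, the cytosolic enzyme (ENSG00000176974, chromosome 17, positions 18327860 to 18363563, minus strand), was expressed at a far lower level. It had 4.18, 3.99 and 3.90 FPKM in KO and 3.12, 3.19 and 3.41 FPKM in WT, higher in every KO library. The ratio was 1.24 (log2 fold change 0.25, SE 0.06, limma adjusted p = 0.0195). The call was lost without KO 1 (limma adjusted p = 0.067), KO 2 (0.0612) or WT 1 (0.0788). It was also lost with the replicate number as a block (0.0764), and with that block and the GC and length correction (0.0978). The log2 fold change was 0.17 after the GC and length correction. SMCR8, transcribed from the other strand at a mean of 9.30 FPKM, overlaps 2.69% of its exonic bases.

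The SHMT2 to SHMT1 ratio within libraries was 11.3, 11.4 and 10.95 in KO and 19.1, 16.8 and 20.3 in WT. The balance lay less far towards the mitochondrial enzyme in each KO library, by a factor of 0.598 between the means (exact permutation test, two-sided p = 0.1, adjusted p = 0.125).

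**Figure D3:**
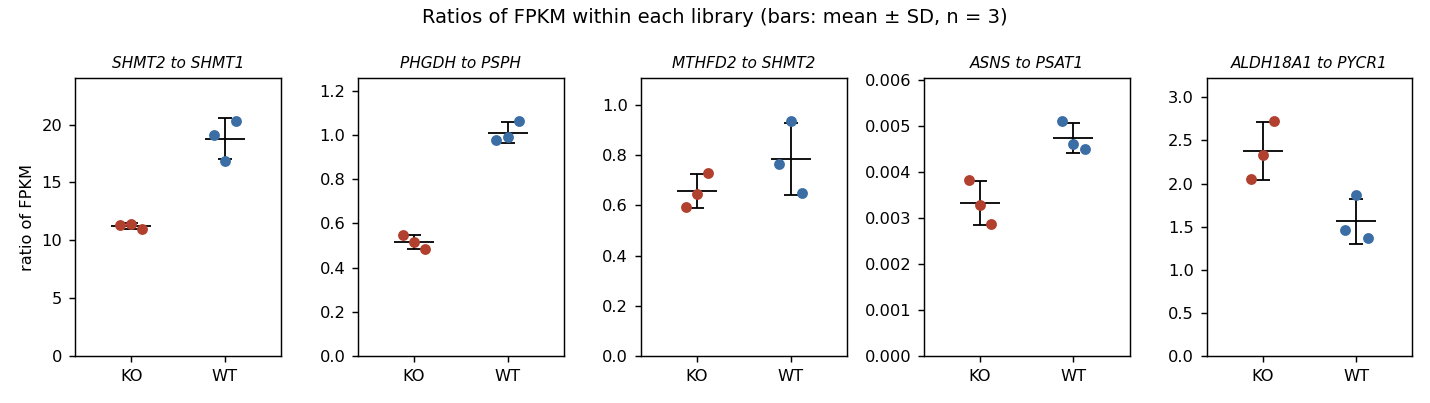
Ratio of FPKM values of a pair of genes within each library (vertical axes, each from 0) for 5 pairs, in 3 KO and 3 WT libraries; points are libraries and bars the mean ± SD. The groups are apart for every pair except MTHFD2 to SHMT2, and ALDH18A1 to PYCR1 is the pair whose ratio is higher in KO.

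MTHFD2, the mitochondrial dehydrogenase and cyclohydrolase of folate units (ENSG00000065911, chromosome 2, positions 74198562 to 74217565, plus strand), was lower in KO. It was at 28.2, 29.3 and 31.1 FPKM in KO and 45.7, 50.4 and 45.1 FPKM in WT, with a wide gap between the groups. The ratio was 0.627 (log2 fold change −0.65, SE 0.07, limma adjusted p = 0.000486), and the log2 fold change was −0.50 after the GC and length correction. SLC4A5, on the other strand at a mean of 0.0234 FPKM, overlaps 27.2% of its exonic bases. Its 7 annotated pseudogenes held 3 reads over the KO libraries and 5 over the WT libraries. The MTHFD2 to SHMT2 ratio averaged 0.656 ± 0.068 in KO and 0.785 ± 0.144 in WT, and the groups overlapped (exact permutation test, two-sided p = 0.2, adjusted p = 0.2).

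MTHFD1L, the mitochondrial formyltetrahydrofolate synthetase that releases formate (ENSG00000120254, chromosome 6, positions 150865549 to 151101887, plus strand), did not pass. Its level was 28.2, 29.1 and 32.9 FPKM in KO and 30.3, 33.3 and 31.1 FPKM in WT, with overlapping groups. The log2 fold change was −0.07, with a 95% confidence interval of −0.25 to 0.11 (limma adjusted p = 0.503). MTHFD1L holds the response element shown above, as does ASNS, whose level was lower in KO. The part of the element in the level of either gene was not tested.

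ASNS, asparagine synthetase (ENSG00000070669, chromosome 7, positions 97852118 to 97872542, minus strand), had 19, 18 and 17 reads in KO and 58, 58 and 48 reads in WT. In FPKM its level was 0.249, 0.235 and 0.230 in KO and 0.769, 0.782 and 0.648 in WT, a low level without overlap between the groups. The KO to WT ratio was 0.324. Tested with no filter, its log2 fold change was −0.49 (SE 0.07, limma adjusted p = 0.0101; 7.90% of the 31298 genes in that fit were called lower). With limma-voom on recovered reads and a filter at a mean of 10 reads, chosen after its level was seen, the log2 fold change was −1.63 (SE 0.26, adjusted p = 0.000313; 45.2% of 14885 genes called, 24.8% lower and 20.4% higher). The level of ASNS may not be comparable with that of the other genes. Exons of AC079781.5, a transcript annotated on the same strand, cover 96.1% of its 1752 coding bases and 44.6% of its 4455 exonic bases, and AC079781.5 itself had 0 reads in KO and 1 read in WT. The sources used here do not say how reads in exons shared by both genes were assigned. If all counted reads came from the 2470 exonic bases that ASNS does not share, its level would be 0.448, 0.424 and 0.415 FPKM in KO and 1.39, 1.41 and 1.17 FPKM in WT, with the same ratio. The pseudogene ASNSP1 had 4 reads in KO and 27 in WT, and ASNSD1, a gene with an asparagine synthetase domain, 1931 reads in KO and 2544 in WT.

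Of the proline genes, PYCR1 was called lower and ALDH18A1 was not called. ALDH18A1, the pyrroline-5-carboxylate synthase (ENSG00000059573, chromosome 10, positions 95605929 to 95656706, minus strand), was at 31.1, 35.6 and 35.1 FPKM in KO and 28.8, 30.8 and 30.8 FPKM in WT. The KO libraries were all above the WT libraries, by little in KO 1, and the gene did not pass (log2 fold change 0.16, 95% confidence interval −0.0035 to 0.33, limma adjusted p = 0.102; called higher without KO 1, adjusted p = 0.0444). PYCR1, the mitochondrial pyrroline-5-carboxylate reductase (ENSG00000183010, chromosome 17, positions 81932384 to 81942412, minus strand), was at 15.1, 15.2 and 12.9 FPKM in KO and 19.8, 16.5 and 22.5 FPKM in WT. The groups did not overlap, with WT 2 closest to KO.

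The mean of PYCR1 was 14.4 ± 1.3 FPKM in KO and 19.6 ± 3.0 FPKM in WT (SD, n = 3 each; log2 fold change −0.41, SE 0.12, limma adjusted p = 0.0266). This call was lost with no filter (limma adjusted p = 0.0808) and with the replicate number as a block (0.0747). It was also lost without any 1 library other than WT 2. The limma adjusted p was 0.0504 without KO 1, 0.0509 without KO 2 and 0.0786 without KO 3. It was 0.0793 without WT 1 and 0.0576 without WT 3. PYCR1 is the most GC-rich of the 10 genes (61.8%), and after the GC and length correction its log2 fold change was −0.63 (limma adjusted p = 0.000794). The ALDH18A1 to PYCR1 ratio was 2.06, 2.34 and 2.73 in KO and 1.46, 1.86 and 1.37 in WT, higher in every KO library (exact permutation test, two-sided p = 0.1, adjusted p = 0.125). PYCR3, a cytosolic reductase of the same step, was not called: it had 10.9 ± 0.5 FPKM in KO and 10.2 ± 0.9 FPKM in WT (95% confidence interval of the log2 fold change −0.09 to 0.26, limma adjusted p = 0.389).

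**Figure D4:**
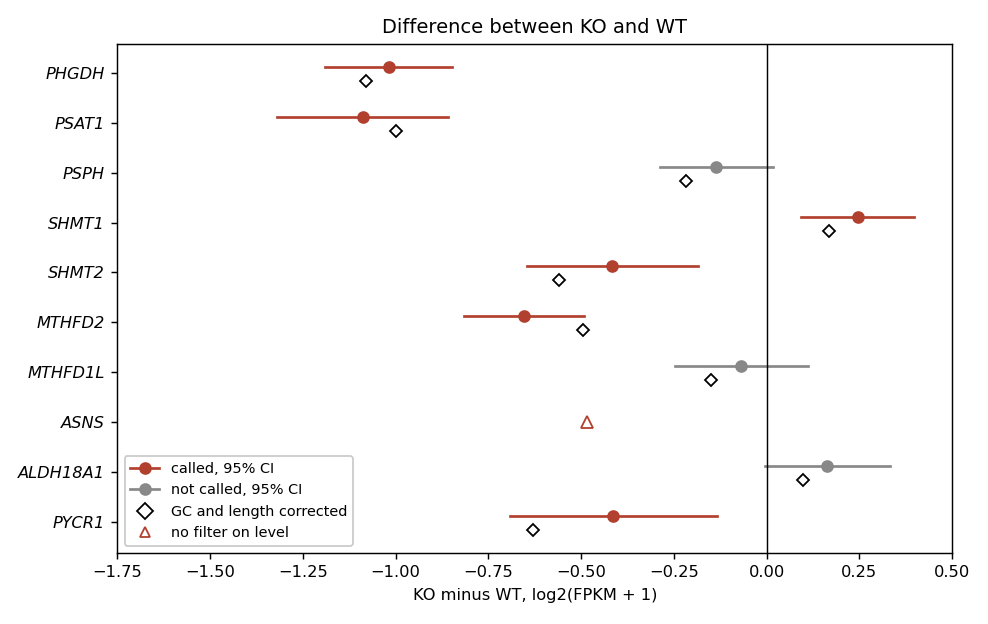
KO minus WT on the log2(FPKM + 1) scale (horizontal axis) for the 10 genes; circles are limma estimates with 95% confidence intervals, red where called, diamonds the estimates after the GC and length correction, and the triangle ASNS with no filter. PSAT1 and PHGDH lie at −1.09 and −1.02, and SHMT1 is the called gene to the right of 0.

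Replicates of a genotype differed in ways that followed groups of these genes. SHMT2 and PYCR1 both had their highest WT value in WT 3 and their lowest in WT 2, while PSAT1 and MTHFD2 had their highest in WT 2 and their lowest in WT 3. GC content was 57.0% for SHMT2 and 61.8% for PYCR1, and 42.3% for PSAT1 and 41.4% for MTHFD2. After the GC and length correction the WT libraries lay closer together, at 147, 156 and 146 FPKM for PSAT1 and 63.0, 59.7 and 68.7 FPKM for SHMT2.

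Of 14 other tested genes of folate metabolism, 3 were higher, 3 lower and 8 did not pass, close to the shares over all genes tested (21.0% higher, 22.4% lower). Their median was −0.05. With GC and length corrected it was 0.08, with 4 genes higher and 3 lower. SFXN3, a relative of the mitochondrial serine carrier SFXN1, rose to 20.7 ± 0.6 FPKM in KO, against 15.0 ± 0.5 FPKM in WT (limma adjusted p = 0.0011), and SFXN2 rose as well. DHFR2, ALDH1L1 and the folate carrier SLC19A1 fell, SLC19A1 to 10.8 ± 0.3 FPKM in KO, against 12.6 ± 0.6 FPKM in WT (limma adjusted p = 0.0244).

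SFXN1, a mitochondrial serine carrier, was at 17.96 ± 1.57 FPKM in KO and 20.6 ± 1.8 FPKM in WT (limma adjusted p = 0.125). MTHFD1, the cytosolic counterpart of the mitochondrial folate enzymes, was at 18.4 ± 1.6 FPKM in KO and 17.2 ± 0.6 FPKM in WT (limma adjusted p = 0.387), and MTHFD2L, the paralog of MTHFD2, at 1.102 ± 0.066 FPKM in KO and 1.31 ± 0.12 FPKM in WT (limma adjusted p = 0.271). Without KO 2 or without WT 1 the called genes of this list numbered 3, 2 higher and 1 lower. Under the filter, SLC46A1, a folate importer, had 224 reads in KO and 45 in WT, and ALDH1L2, the mitochondrial formyltetrahydrofolate dehydrogenase, 301 reads in KO and 418 in WT.

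**Figure D5:**
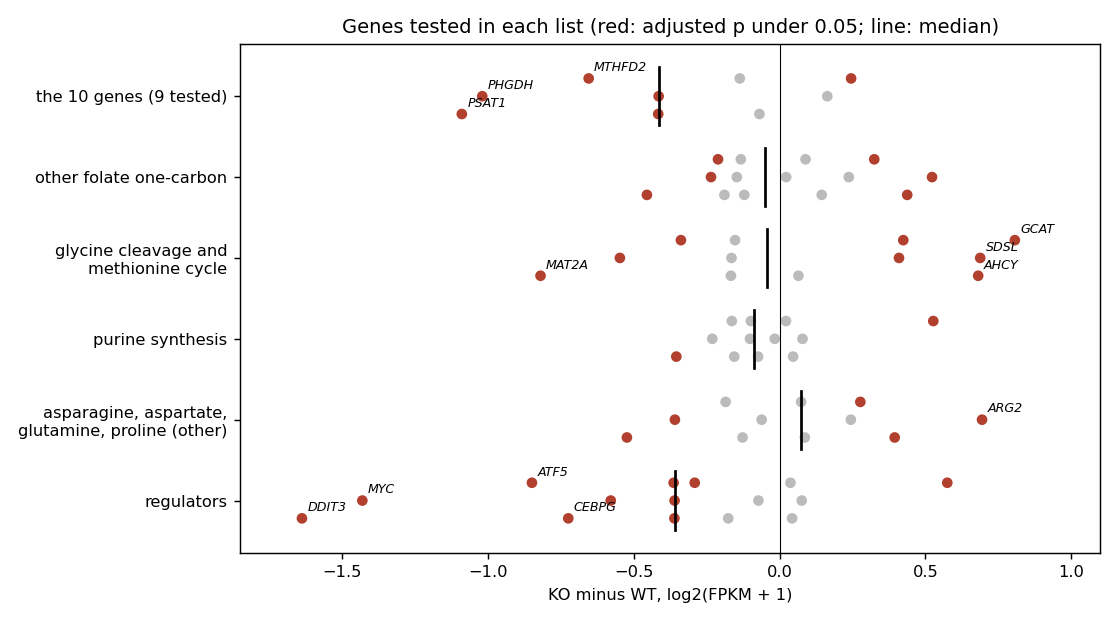
KO minus WT on the log2(FPKM + 1) scale (horizontal axis) of every tested gene in 6 lists, a row per list; red points have an adjusted p under 0.05 and the line is the median. The 9 tested serine, folate and proline genes have a median of −0.41 and the mixed list called regulators −0.36. The other 4 lists have medians from −0.09 to 0.07, each of which changes sign once values are corrected for GC and length.

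For the genes of glycine cleavage, methionine cycle and serine breakdown, 5 of 12 tested genes were higher and 3 lower, against 21.0% higher and 22.4% lower over all genes tested. The median was −0.04 and changed sign after the GC and length correction, to 0.26 with 6 higher and 3 lower. MAT2A, which makes the methyl donor S-adenosylmethionine, fell to 45.4 ± 3.5 FPKM in KO against 80.8 ± 3.4 FPKM in WT (limma adjusted p = 0.000255). MTR, the folate-dependent methionine synthase, fell to 4.89 ± 0.29 FPKM in KO, against 7.6003 ± 0.43 FPKM in WT (limma adjusted p = 0.000947). AHCY, which hydrolyses S-adenosylhomocysteine, rose to 106.6 ± 7.6 FPKM in KO, against 66.0 ± 3.0 FPKM in WT. GCAT, an enzyme of threonine breakdown, rose to 5.08 ± 0.39 FPKM in KO, against 2.48 ± 0.29 FPKM in WT. AHCYL1, an AHCY-like protein, rose by 0.42 on the log2 scale (limma adjusted p = 0.00454). GLDC, the glycine decarboxylase, lay under the filter with 478 reads in KO and 117 in WT (log2 fold change 0.70 with no filter, limma adjusted p = 0.00559).

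Purine synthesis genes, whose pathway consumes formyl-folate, were represented by 12 tested genes, of which 1 was higher, 1 lower and 10 did not pass (over all genes tested, 21.0% higher and 22.4% lower). Their median was −0.09. IMPDH2, the guanine-branch dehydrogenase, rose to 157 ± 3 FPKM in KO against 109 ± 4 FPKM in WT, and ADSS, an adenylosuccinate synthase, fell to 14.9 ± 0.5 FPKM in KO, against 19.3 ± 0.7 FPKM in WT. GART and ATIC, which use formyl-folate, had 38.7 ± 1.7 and 43.7 ± 4.5 FPKM in KO and 37.6 ± 3.3 and 46.0 ± 3.8 FPKM in WT. After the GC and length correction 2 genes were higher and 3 lower, and the median was 0.0066.

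Among other asparagine, aspartate, glutamine and proline genes, 3 of 11 tested were higher and 2 lower, close to the 21.0% higher and 22.4% lower over all genes tested. With GC and length corrected, the median of 0.07 became −0.13. ARG2, the mitochondrial arginase, rose to 5.90 ± 0.25 FPKM in KO against 3.27 ± 0.24 FPKM in WT (limma adjusted p = 0.000385), and ASL and GLUD1 rose as well. ODC1, which makes putrescine from ornithine, fell to 176 ± 17 FPKM in KO, against 253 ± 16 FPKM in WT (limma adjusted p = 0.00355). GLUL, glutamine synthetase, lay under the filter with 62 reads in KO and 731 in WT (log2 fold change −1.20 with no filter, limma adjusted p = 0.0015). The called genes of this list numbered 3 without KO 2, 2 without WT 1 and 8, 4 in each direction, after the GC and length correction.

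Of 15 tested genes in the list called regulators, 9 were lower, 1 higher and 5 did not pass. Over all genes tested 22.4% were lower and 21.0% higher. The median of the list was −0.36, and −0.34 with GC and length corrected. The list mixes transcription regulators of amino acid synthesis genes with the stress-induced DDIT3, the ATF4 target TRIB3 and the EIF2AK kinases. Its counts and median therefore do not describe direct regulators of these genes alone. ATF4 was at 122.5 ± 1.4 FPKM in KO and 150.0 ± 1.2 FPKM in WT (log2 fold change −0.29, limma adjusted p = 0.00472), a small decrease of an mRNA whose protein is known to be set mainly by translation. Its partner CEBPG fell to 6.23 ± 0.33 FPKM in KO, against 10.95 ± 0.70 FPKM in WT, ATF5 to 5.94 ± 0.40 FPKM in KO, against 11.5 ± 0.7 FPKM in WT, and ATF3 to 1.86 ± 0.13 FPKM in KO, against 3.27 ± 0.23 FPKM in WT. CEBPB, another C/EBP protein and far more abundant than CEBPG, was not called. It was at 74.9 ± 7.5 FPKM in KO and 78.6 ± 4.8 FPKM in WT (limma adjusted p = 0.539). KDM4C and EHMT2 were not called either (limma adjusted p of 0.501 and 0.75). DDIT3, a stress-induced C/EBP relative, fell to 2.37 ± 0.32 FPKM in KO, against 9.46 ± 0.40 FPKM in WT (limma adjusted p = 2.63e-05).

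MYC, which activates serine and folate genes in other cells, fell to 9.42 ± 0.01 FPKM in KO against 27.1 ± 2.3 FPKM in WT (limma adjusted p = 2.49e-05). TRIB3, a pseudokinase target of ATF4, was at 40.2 ± 1.3 FPKM in KO and 45.6 ± 2.1 FPKM in WT and did not pass. Of the kinases that phosphorylate eIF2 alpha, EIF2AK1 rose, EIF2AK2 and EIF2AK3 fell, and EIF2AK4, the sensor of amino acid shortage, was at 12.95 ± 0.56 FPKM in KO and 12.55 ± 0.80 FPKM in WT (limma adjusted p = 0.641).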

How the data were processed

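Per the labels' protocols, total RNA was purified on Qiagen columns and SMARTER kits were used for mRNA sequencing libraries. The authors deposited FPKM values for 58735 genes in 6 libraries; the sources used here name no aligner, counter or strand setting. Mouse builds are listed in the submitters' processing notes, but starts and ends of 58724 genes equal the human GENCODE release 29 on GRCh38. FPKM times gene length stepped in whole reads (tolerance 0.02 reads), from which reads were recovered. The FPKM of 1 read in a gene of 1 kb did not follow the recovered totals alone. It was 0.0602 in KO 3, with 16955111 reads, and 0.0591 in WT 1, with 16434344 reads. The test was limma (3.58.1, R 4.3.3, lmFit and eBayes with trend) on log2(FPKM + 1) for 12000 genes with a mean of at least 1 FPKM. Genotype was the only term, and p-values were two-sided and Benjamini-Hochberg adjusted. The fit was tried beforehand on simulated data with no GC trend and far fewer changed genes. That trial does not give its error rate in these data. GC content was that of the longest GENCODE transcript; each library's trend with GC and length was removed by lowess (span 0.3).

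The members and lists were chosen with earlier results of these data known. Named were the 10 genes, ADGRG1, up to 5 called genes per list by adjusted p, MTHFD1, MTHFD2L, PYCR3, ATF4, DDIT3 and MYC. Chosen after their values were seen were ALDH1L1, GART, ATIC, SFXN1, CEBPB, KDM4C, EHMT2, TRIB3, the EIF2AK kinases and the untested list genes with values. Some genes the rule names are not reported here. Alternatives were another pseudocount, filters, normalizations, limma-voom on recovered reads, left-out libraries and a replicate block.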

Additional observations from a re-analysis of the deposited data

How the results depend on the processing

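Over the alternatives run, 4 to 6 of the 10 genes were called lower. The called higher member, SHMT1, was not called with the filter at a mean of 5 FPKM, under which it was not tested (0 higher). PHGDH, PSAT1, SHMT2 and MTHFD2 kept their call under every alternative. Leaving out 1 library gave 4 to 5 genes lower and 0 to 1 higher, 3789 to 5372 called genes in all, 3 to 6 called other folate genes, 7 to 8 glycine and methionine genes, 2 to 3 purine genes, 2 to 5 asparagine, aspartate, glutamine and proline genes and 8 to 10 regulators. The filter at 5 FPKM left 3203 called genes of 7053, 2 called folate genes and 4 glycine and methionine genes, since fewer genes were tested. Purine genes called numbered 4 with limma-voom on recovered reads, also with the filter at a mean of 10 reads, and 5 after the GC and length correction, with or without the block; other asparagine, aspartate, glutamine and proline genes called numbered 8 after that correction. The cause was not tested. The labels give both genotypes replicate numbers 1 to 3. Deviations of same-numbered libraries from their group means correlated negatively (r of −0.074, −0.184 and −0.348 over 12000 genes). These deviations were not corrected for the GC trend, so they cannot decide whether the numbers are a pairing. With the replicate block 4 genes were lower and 0 higher, 3866 genes were called in all and 3 other asparagine, aspartate, glutamine and proline genes; with the block and the correction 6 genes were lower and 0 higher. Depth limits ASNS most, at 17 to 58 reads per library.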
